A study of Mus musculus with 2 samples.

Results

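The cortical projection neuron transcription factors Tbr1, Fezf2, Bcl11a, Bcl11b, Cux1, Cux2, Neurod2, Neurod6 and Zfpm2 were followed in the germinal zones of the mouse cortex (the ventricular zone, VZ, and the subventricular zone, SVZ) at E13.5. The 9 genes were taken by their symbols from the 21896 genes of the data set, and all 9 were found. The control library came from Rcor2fl/fl embryos, whose Rcor2 gene carries LoxP sites but is intact, and the other from Rcor2cko embryos, in which Cre recombinase driven by Nestin, and thus acting across the neural lineage, removes the first exons. Both are of the C57/BL6 strain at E13.5, and the embryos came from crosses of Rcor2fl/+ mice carrying NesCre. How many embryos entered each library is not given in the sources used here. With 1 library per genotype, the differences below have no replicate check and compare these 2 libraries rather than the genotypes. In bulk tissue, fewer cells of a type and less RNA per cell cannot be told apart.

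Projection neurons are the excitatory pyramidal neurons of the cortex. They arise from radial glia in the VZ, largely through intermediate progenitors of the SVZ, and the deep layers are made before the upper ones. Neurod2 and Neurod6 are basic helix-loop-helix (bHLH) factors of nearly all newborn excitatory neurons. Tbr1 and the GATA cofactor Zfpm2, also called FOG2, belong to corticothalamic neurons of the deepest layer, while Fezf2 and its downstream factor Bcl11b (Ctip2) direct the subcerebral neurons above them. Bcl11a (Ctip1) is a zinc finger paralogue of Bcl11b, and the homeobox genes Cux1 and Cux2 mark upper-layer neurons and, for Cux2, SVZ progenitors.

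On Rcor2 depletion, Zfpm2 was the only one of the 9 genes past 1.5-fold, at 8.46 FPKM in the control and 4.65 FPKM in the Rcor2cko library. Fezf2 came next, at 76.6 and 54.5 FPKM, whereas Tbr1, at 71.5 and 83.2 FPKM, lay on the other side, so that the ratio of Tbr1 to Fezf2 went from 0.934 to 1.53. The most abundant pair, Neurod6 and Neurod2, had log2 changes of -0.05 and -0.14. FPKM are fragments scaled to transcript length and sequencing depth, so that levels can be set side by side. A small difference between libraries still depends on how they are scaled. Control values are also sums over transcripts, whereas Rcor2cko values are given per gene.

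The genes are spread over 7 chromosomes, given here in NCBIM37 (mm9) coordinates of the GENCODE vM1 annotation, counted from 1. Neurod6 (chr6:55627812-55631257, minus strand), Neurod2 (chr11:98186729-98190962, minus strand) and Fezf2 (chr14:13174406-13178379, minus strand) are compact genes of 2, 2 and 5 exons in their longest transcript. Tbr1 lies at chr2:61640987-61652171 on the plus strand. Bcl11a (chr11:23978056-24074123, plus strand) and Bcl11b (chr12:109148613-109241812, minus strand) each have 4 exons in the longest transcript. Cux1 (chr5:136724005-137043301, minus strand) and Cux2 (chr5:122308396-122500111, minus strand) share a chromosome, with 24 and 23 exons. Zfpm2 is the longest locus (chr15:40486588-40936138, plus strand), with 8 exons over 450 kb.

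The sequences before the transcription starts of the most abundant pair and of Fezf2 are shown because these genes are compact, with 1 annotated transcript each, so that their FPKM refers to a single start. They are the 250 bases upstream of the RefSeq start (GRCm38.p6), and each was found once in NCBIM37. Capitals mark E-boxes (CANNTG, which reads the same on both strands), the motif that bHLH factors bind.
Neurod6 promoter, chr6:55631258-55631507, minus strand: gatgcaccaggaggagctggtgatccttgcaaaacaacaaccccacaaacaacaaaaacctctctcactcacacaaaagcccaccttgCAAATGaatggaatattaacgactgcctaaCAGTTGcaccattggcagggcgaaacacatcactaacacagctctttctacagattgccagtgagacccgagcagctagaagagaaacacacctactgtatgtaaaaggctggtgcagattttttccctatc
Neurod2 promoter, chr11:98190960-98191209, minus strand: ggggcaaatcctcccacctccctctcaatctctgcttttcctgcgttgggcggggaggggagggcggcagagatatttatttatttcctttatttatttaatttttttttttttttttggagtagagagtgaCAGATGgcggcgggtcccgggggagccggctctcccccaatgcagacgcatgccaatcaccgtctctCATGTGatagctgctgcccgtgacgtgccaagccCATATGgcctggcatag
Fezf2 promoter, chr14:13178380-13178629, minus strand: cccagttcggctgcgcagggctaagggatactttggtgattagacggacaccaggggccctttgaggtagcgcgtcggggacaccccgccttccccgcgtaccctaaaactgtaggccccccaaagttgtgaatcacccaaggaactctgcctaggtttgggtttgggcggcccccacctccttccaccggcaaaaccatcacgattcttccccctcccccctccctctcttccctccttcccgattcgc

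The Neurod6 window holds 2 E-boxes, the Neurod2 window 3 and the Fezf2 window 0. Of all 32851 RefSeq promoter windows of the same length, 66.2% hold at least 1, so that an E-box sets no gene apart. Promoter windows were found for 8 of the 9 genes, and 5 of these 8 had an E-box. No window was listed for Zfpm2.

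Bcl11b carries a sequence of another kind. Control values were deposited for each RefSeq transcript, and the 2 Bcl11b transcripts of 7923 nt (NM_001079883) and 7707 nt (NM_021399) differ in length by 216 nt. In the annotation, exon 3 of 4 of the longer Bcl11b transcript has exactly this length, is coding throughout and is skipped in a shorter transcript. Its length is 72 times 3 bases, so that skipping it keeps the reading frame. The position of the codons within it was not determined, and they need not start at its first base.
Bcl11b exon 3, chr12:109203882-109204097, minus strand, NCBIM37: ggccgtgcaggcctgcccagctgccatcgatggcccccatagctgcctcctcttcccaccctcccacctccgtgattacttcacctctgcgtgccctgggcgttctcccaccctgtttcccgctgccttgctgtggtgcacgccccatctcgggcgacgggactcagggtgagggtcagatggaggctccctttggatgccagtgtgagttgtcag

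The depth of the 2 libraries allowed fragments to be counted behind most of these values. The deposited FPKM of a gene with 1 transcript falls on steps of whole fragments, which gave scaling totals of 18841684 (Rcor2fl/fl) and 25479853 (Rcor2cko) fragments. Among values no higher than 100 fragments, 99.3% of 4015 and 99.4% of 3959 were within 0.1 of a whole number. The level of 3 fragments, taken as the smallest that can be shown, is 0.0882 and 0.0654 FPKM for a transcript of 2000 nt, so that all 9 genes lay far above it. Rcor2 itself was at 90.6 and 55.7 FPKM over the whole gene, a log2 change of -0.70, and exons outside the LoxP sites remain in that value. The libraries also differed in Xist, at 177 and 0.109 FPKM, and Eif2s3y, listed at 0 and at 19.8 FPKM, so that the sex of the embryos and the genotype cannot be told apart. The dissected tissue held both progenitors and neurons by its markers. The radial glial Vim was at 308 and 303 FPKM and the neuronal Tubb3 at 568 and 521 FPKM.

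In the control library the 9 genes spanned a 47.1-fold range of level. Neurod6 was the highest, at 399 FPKM, which placed it at rank 103 of all 21896 genes. Neurod2 followed at 149 FPKM, and the 95% bounds that the authors' software gives with each FPKM did not overlap between them. Bcl11a at 84.2 FPKM, Fezf2 at 76.6 FPKM and Tbr1 at 71.5 FPKM formed a middle group in which the bounds of neighbours overlapped. The same held for Cux1 at 38.1 FPKM and Bcl11b at 35.0 FPKM. Cux2 at 13.3 FPKM and Zfpm2 at 8.46 FPKM were the lowest, each separated from its neighbours by bounds that did not overlap. In the Rcor2cko library Neurod6 (386 FPKM, rank 104) and Neurod2 (135 FPKM) kept the first places. Tbr1 stood above Bcl11a and Fezf2 there, and Bcl11b above Cux1, in both cases with overlapping bounds between neighbours. Tbr1 and Fezf2, which were not neighbours there, had bounds that did not overlap (72.5 to 93.9 and 47.7 to 61.4 FPKM). Zfpm2 was again the lowest, and the range widened to 83.2-fold.

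**Figure D1:**
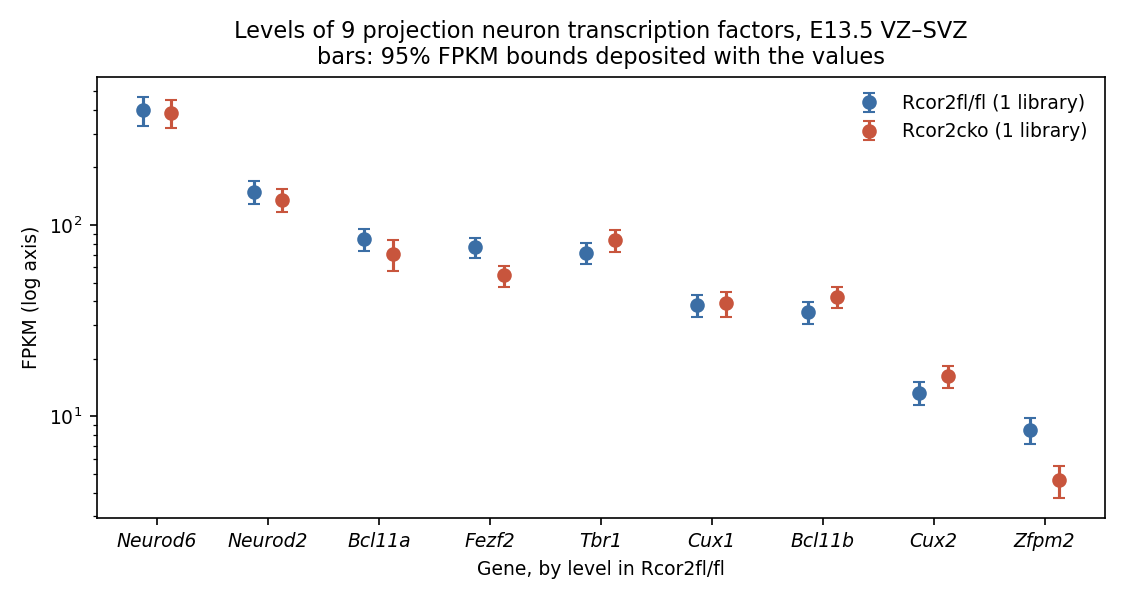
FPKM (log axis) of the 9 genes in the Rcor2fl/fl library (blue) and the Rcor2cko library (red), ordered by level in the control, with the 95% bounds deposited with each value as bars. Only for Fezf2 and Zfpm2 do the bars of the 2 libraries not overlap.

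To compare the libraries, the ratio of (FPKM + 0.1), Rcor2cko over Rcor2fl/fl, was taken on the log2 scale, and genes above 1.5-fold were counted. A gene entered if either library reached 1 FPKM. Of these 11777 genes, 5.54% were past 1.5-fold, 3.79% higher and 1.76% lower. All 9 genes entered this comparison. None was higher and 1, Zfpm2, was lower. Their median log2 change was -0.05, against -0.03 over all genes compared, with 4 genes above 0 and 5 below. With so few genes, 1 of 9 cannot be set apart from the background share.

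Zfpm2 rested on 762 fragments in the control and on 565 in the deeper Rcor2cko library. Its log2 change was -0.85, with a 95% exact interval of the fragment counts from -1.02 to -0.71. Only 89 of the 11777 genes had a lower value. A wider interval, combining the deposited 95% FPKM bounds of both libraries, ran from -1.22 to -0.51. It covers error within these 2 libraries only, not variation between embryos or between libraries of a genotype.

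Fezf2 had 3044 and 2922 fragments. The log2 change was -0.49, which does not reach 1.5-fold (0.58), with an exact interval from -0.56 to -0.42 and a wider interval from -0.74 to -0.24. Both intervals lie below 0, and 335 of the 11777 genes had a lower value. Zfpm2 and Fezf2 are thus the pair at the low end of the set, and no other of the 9 genes had a wider interval that lay below 0.

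Tbr1 had 5096 and 8003 fragments. Its log2 change of 0.22 had an exact interval from 0.17 to 0.27 but a wider interval from -0.04 to 0.48, which includes 0. Because a ratio of 2 genes within a library does not depend on how that library is scaled, the 2 deep-layer factors were also compared directly. The ratio of Tbr1 to Fezf2 thus differed by 0.71 on the log2 scale between the libraries, with an exact interval from 0.62 to 0.80. The ratio of Tbr1 to Zfpm2, both corticothalamic factors, went from 8.45 to 17.9, a log2 change of 1.07 (0.92 to 1.25). Such differences were not particular to pairs of deep-layer factors. Of the 36 pairs in the set, 10 changed in ratio by more than 1.5-fold, 7 with Zfpm2 and the other 3 with Fezf2. On the log2 scale, the ratio of Fezf2 to the upper-layer Cux2 changed by -0.78 and that of Cux2 to Zfpm2 by 1.14.

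Bcl11b was at 35.0 and 42.0 FPKM (log2 change 0.26), with a wider interval from 0.004 to 0.52. Bcl11a was at 84.2 and 70.5 FPKM (log2 change -0.25), with a wider interval from -0.58 to 0.07. The ratio of Bcl11a to Bcl11b was 2.41 and 1.68. The interval of Bcl11a includes 0, and its sign flipped when only the highest transcript of each gene was used (0.32 for Bcl11a and 0.66 for Bcl11b), a setting that compares 1 control transcript with the whole gene. Exact intervals could not be computed for them, since both have several transcripts and the Rcor2cko values are given per gene.

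The upper-layer genes Cux2 and Cux1 showed small positive values. Cux2 was at 13.3 and 16.3 FPKM, from 1233 and 2035 fragments. The log2 change was 0.29, with an exact interval from 0.19 to 0.39 and a wider one from 0.01 to 0.56. This was the highest value of the 9 genes, and 1111 of the 11777 genes had a higher one. Cux1 was at 38.1 and 38.9 FPKM (log2 change 0.03), with a wider interval from -0.25 to 0.31. A short transcript, described below, made up 87.1% of the Cux1 control value, so that the whole-gene value need not describe the homeobox factor.

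Neurod6 and Neurod2 had the most fragments. Neurod6, at 399 and 386 FPKM, had 14716 and 19214 fragments and a log2 change of -0.05 (exact interval -0.08 to -0.01), whose sign flipped under upper-quartile scaling. Neurod2, at 149 and 135 FPKM, had 8286 and 10124 fragments and a log2 change of -0.14 (exact interval -0.19 to -0.10). The wider intervals, from -0.39 to 0.30 and from -0.42 to 0.14, include 0 for both. A fold change beyond 1.5 in either direction lies outside these intervals.

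In all, the exact counting intervals lay off 0 for all 6 genes that have one, 2 higher and 4 lower. So did those of 37.2% of the 8460 genes compared in this way (14.0% higher, 23.2% lower), since such intervals cover counting error only and are narrow at high levels. The wider intervals lay off 0 for 4 of the 9 genes (Zfpm2 and Fezf2 below, Bcl11b and Cux2 above), against 7.67% of 11760 genes (4.42% higher, 3.25% lower), and those of Bcl11b and Cux2 only just. These shares were not matched for level. The 11760 genes include ones close to 1 FPKM with wide intervals, such as Aif1 (1.32 and 1.40 FPKM, -0.90 to 1.05). Each of the 9 genes was at 4.65 FPKM or more.

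**Figure D2:**
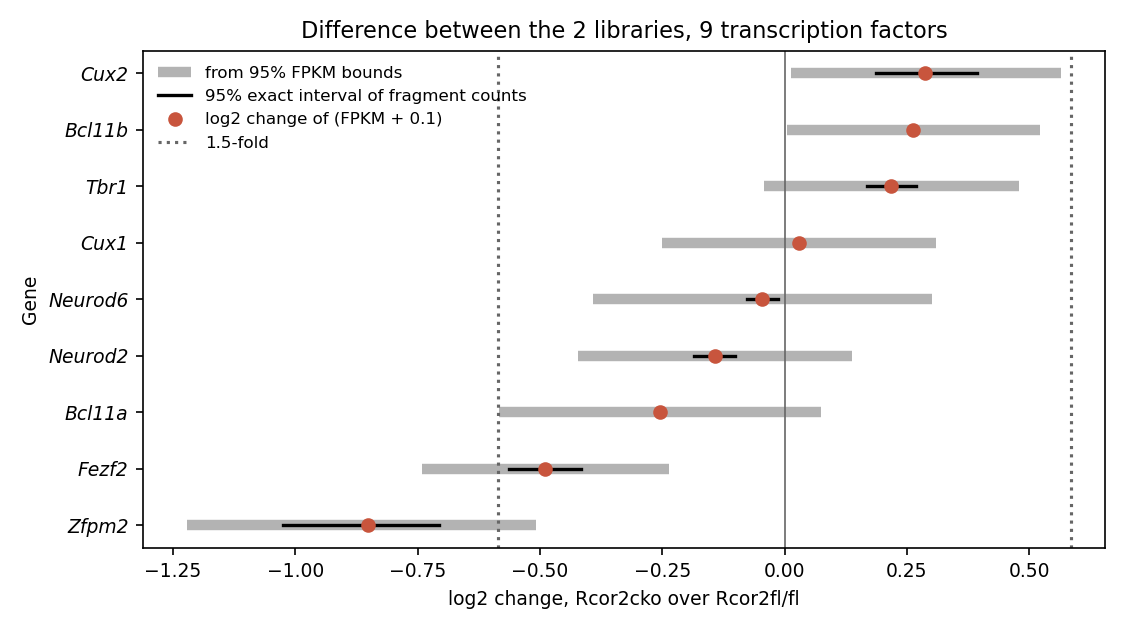
Log2 change of each gene, Rcor2cko over Rcor2fl/fl (red points), with the 95% exact interval of fragment counts (black) and the interval from the deposited 95% FPKM bounds (grey). Zfpm2, at -0.85, is the only point outside the dotted lines at 1.5-fold.

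**Figure D3:**
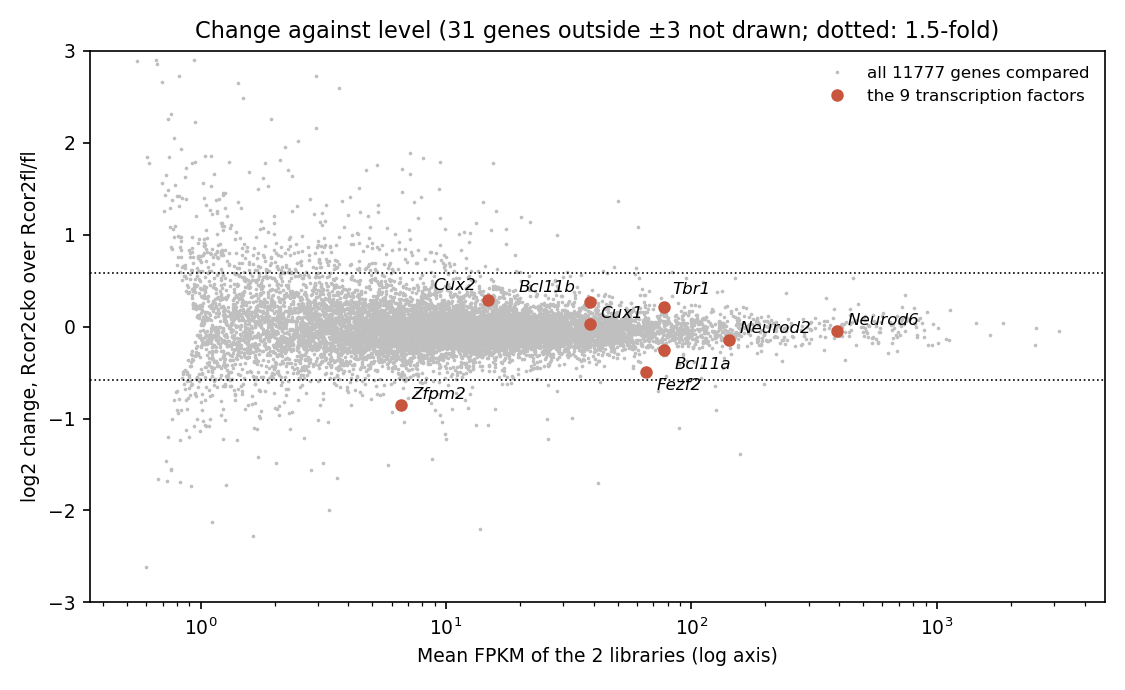
Log2 change against the mean FPKM of the 2 libraries (log axis) for the 11777 genes compared (grey) and the 9 transcription factors (red), with 1.5-fold as dotted lines. The 31 genes beyond 3 on the log2 scale are not drawn. Zfpm2 lies below the lower dotted line and the other 8 genes lie between the lines, with Fezf2 nearest to the lower line.

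Transcripts could be told apart in the control library only. For Cux1, the transcript of 2972 nt (NM_198602) was at 33.2 FPKM and the transcript of 5018 nt (NM_009986) at 4.91 FPKM, so that the shorter one made up 87.1% of the gene's FPKM. They start at different sites in the file. In the annotation, the Cux1 transcript of 5007 nt (coding sequence 4278 nt) ends at position 136750126, whereas those of 3065 and 3247 nt (coding sequence 2286 and 2001 nt) run on to other 3′ ends at 136724005 and 136724008. The Cux1 locus is known to give, beside the homeodomain protein, the Golgi protein CASP, which lacks the homeodomain. The deposited transcripts can be tied to these annotated ones by length only. Taken alone, the 5018 nt transcript was at 0.369 times the level of Cux2, whereas the whole Cux1 gene was at 2.87 times that level. Which Cux1 transcripts make up the 38.9 FPKM of the Rcor2cko library cannot be read from a value per gene.

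For Bcl11b, the shorter transcript, by its length the one without the exon 3 printed above, was at 26.6 FPKM and the longer at 8.40 FPKM, or 76.0% and 24.0% of the gene. For Bcl11a, the longest of 3 transcripts (3425 nt) was at 56.5 FPKM, 67.1% of the gene, followed by those of 1825 nt at 22.4 FPKM and 1480 nt at 5.26 FPKM. The bounds of the lowest one ran from 1.25 to 9.26 FPKM, so that its share is poorly determined.

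**Figure D4:**
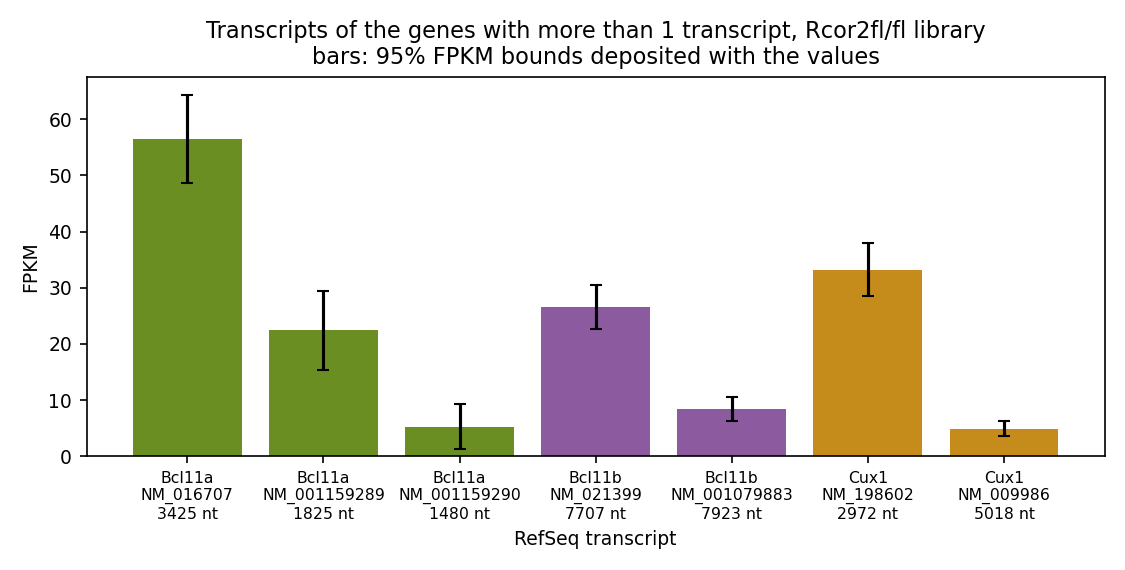
FPKM of each RefSeq transcript of Bcl11a, Bcl11b and Cux1 in the Rcor2fl/fl library (bars), with the 95% bounds deposited with the values. The short Cux1 transcript, at 33.2 FPKM, exceeds the long one, at 4.91 FPKM, beyond their bounds.

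Other genes of the same neurons were taken from lists. Of 16 deep-layer and subplate genes, 15 passed the filter of 1 FPKM, with a median log2 change of -0.25. Of these, 2 were more than 1.5-fold higher, 3 lower and 10 neither. Lower were Nxph4, a neurexophilin of subplate neurons (15.2 and 8.73 FPKM, -0.80), Crim1 (5.26 and 3.23 FPKM, -0.69) and the corticothalamic co-repressor Tle4 (22.3 and 14.5 FPKM, -0.62). Higher were Pcp4, a calmodulin-binding protein (38.7 and 82.0 FPKM, 1.08), and Nr4a2, a nuclear receptor of subplate neurons (4.81 and 7.39 FPKM, 0.61). With a pseudocount of 1, the count past 1.5-fold was 3 in place of 5. The most abundant genes of the list, Nfib and Sox5, had log2 changes of -0.43 and -0.25. The deep-layer genes thus lay on both sides of 0, as did Zfpm2, Fezf2, Tbr1 and Bcl11b.

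Of 13 upper-layer and callosal genes, 12 passed the filter and 1 was past 1.5-fold, the semaphorin receptor Plxnd1 (8.97 and 15.1 FPKM, 0.74). The median of 0.05 was close to the 0.03 of the whole Cux1 gene. Lhx2 was at 130.0 and 88.5 FPKM (-0.55) and Pou3f3 at 90.9 and 91.1 FPKM (0.003).

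Among 8 bHLH and T-box factors of cortical neurogenesis, 2 were past 1.5-fold, both lower, and the median was -0.33. Neurod4 was at 3.12 and 1.59 FPKM (-0.93) and Nhlh2 at 9.91 and 6.51 FPKM (-0.60). Only 1 of the 8 was past 1.5-fold under median, total or upper-quartile scaling or with a pseudocount of 1. Neurog2, which starts cortical neurogenesis, was at 84.3 and 88.0 FPKM (0.06), and Eomes (Tbr2) of intermediate progenitors at 80.9 and 68.1 FPKM (-0.25). Of 13 pan-neuronal genes that passed the filter none was past 1.5-fold, with a median of -0.02, Tubb3 at -0.12 and Dcx at 0.02. The same held for 10 genes of radial glia and cycling cells, with a median of -0.14 and with Fabp7, at 0.53, and Vim, at -0.02, as the most abundant. Of 12 housekeeping genes none was past 1.5-fold either. Their median was -0.13, with Ppia at -0.15 and Gapdh at -0.18.

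Other cell types differed between the libraries beside these neurons. Of 7 Cajal-Retzius genes measured, 5 passed the filter, and 4 of these were more than 1.5-fold lower and none higher. The summed level of the list went from 50.7 to 24.2 FPKM, of which Reln alone made up 36.5 and 15.6 FPKM. Reln was at -1.22, Trp73 at -1.02, Ebf3 at -0.999, Lhx5 at -0.96 and Cacna2d2 at -0.35. Lhx5, at 1.63 and 0.79 FPKM, passed the filter only through the control library and was therefore bound to be lower on Rcor2 depletion. When both libraries had to reach 1 FPKM, 3 genes of the list were past 1.5-fold. Where a library had to reach 5 FPKM, 1 gene of the list, Reln, was past 1.5-fold. This list moved in the same direction as Zfpm2, and its part in the values of Zfpm2 and of the other deep-layer genes was not tested. Of 13 GABAergic genes, 11 were higher and 1, Calb2 at -1.56, lower, with a median of 1.37 and a sum of 54.8 and 125 FPKM. Dlx2 was at 1.89, Dlx6os1 at 1.79, Sst at 1.78, Gad2 at 1.76 and Lhx6 at 0.03. Striatal neurons also express Bcl11a and Bcl11b, and the summed level of 10 striatal genes was 84.1 and 102 FPKM. Meis2 alone made up 60.3 and 67.2 FPKM of these sums, with a wider interval from -0.30 to 0.61. Of the 9 that passed the filter, 5 did so only through the Rcor2cko library and were therefore bound to be higher there. When both libraries had to reach 1 FPKM, 0 genes of this list were past 1.5-fold. Isl1 and Six3 were listed at 0 in the control and reached 2.23 and 1.43 FPKM on Rcor2 depletion, Rxrg was at 0.0358 and 1.12 FPKM, Ebf1 at 0.699 and 2.46 FPKM and Penk at 0.392 and 1.10 FPKM. Of the genes above 1 FPKM in both libraries, Meis2, Ppp1r1b, Foxp1 and Drd1a had log2 changes of 0.16, 0.26, 0.23 and -0.21. The part of striatal and GABAergic neurons in the values of Bcl11b and of the deep-layer list, including Pcp4, was not tested.

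**Figure D5:**
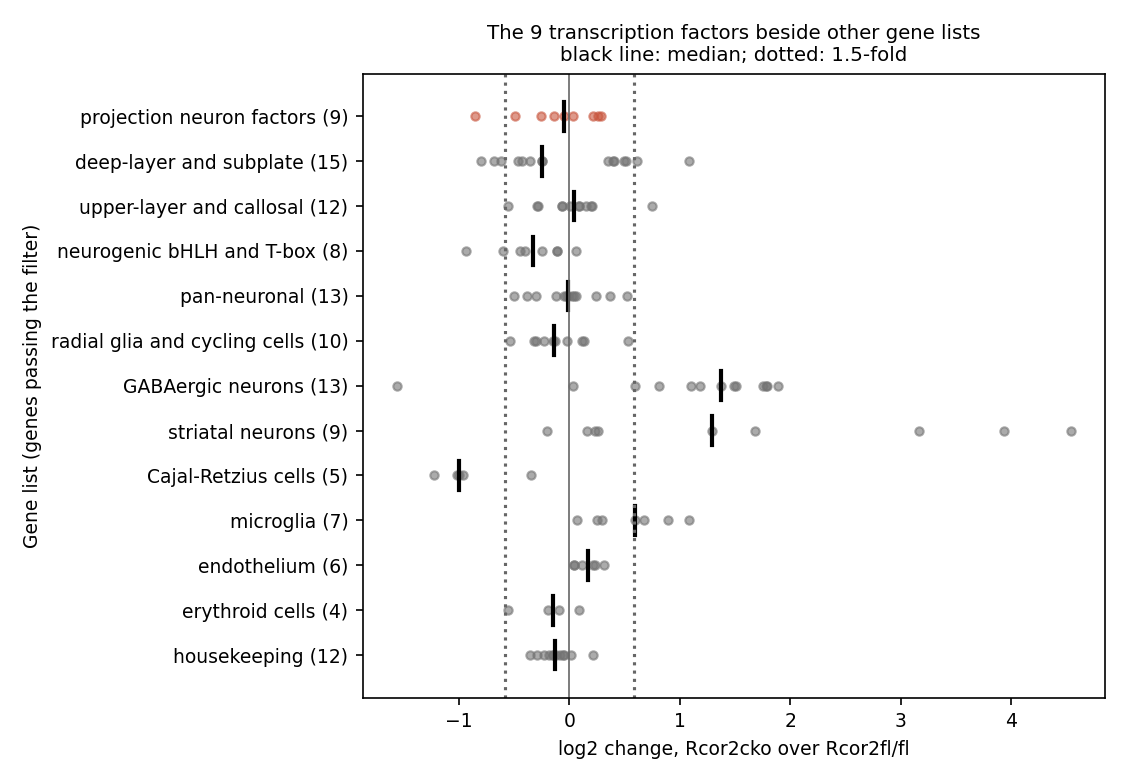
Log2 change of each gene that passed the filter (points), by list, with the median (black line) and 1.5-fold (dotted). The 9 projection neuron factors, with a median of -0.05, lie between -0.85 and 0.29, while the GABAergic list has a median of 1.37 and the Cajal-Retzius list one of -0.999. The striatal points past 1.5-fold are genes under 1 FPKM in the control.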

How the data were processed

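RNA of the E13.5 VZ–SVZ was measured in 1 Rcor2fl/fl and 1 Rcor2cko library, grouped by the genotype in the labels. The authors used RNeasy columns and a stranded mRNA kit, mapped the reads with TopHat (default settings) to mm9, and deposited FPKM with 95% bounds, per RefSeq transcript (27641 rows) for Rcor2fl/fl and per gene (21896 rows) for Rcor2cko. The submitters' processing notes name TopHat 1.3.3 and Cufflinks 1.2.0, whereas the methods of the paper name another TopHat version and Cuffdiff. Rows of a gene were summed here, and their half-widths were added in quadrature. FPKM sums can be affected by how fragments were split among transcripts.

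Whole fragments could be recovered where a gene had a single transcript no shorter than 1000 nt (14350 genes), by fitting 1/FPKM against length on genes with 1 fragment; intervals are Clopper-Pearson. For Bcl11a, Bcl11b and Cux1, the rows of the control summed to whole fragments, but the Rcor2cko value could not be converted. The wider interval adds the relative half-widths of both libraries in quadrature. The recovery of fragments, the 1.5-fold rule and the exact intervals were run on simulated counts of genes with 1 transcript. These counts held counting error only, with no variation between embryos or libraries. The wider interval and the sums over transcripts were not tested in this way. No p-value was computed.

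The 9 genes, the gene lists and the thresholds were chosen with earlier results of these data known. Named list genes are those past 1.5-fold (up to 4 per list, by size) and the 2 most abundant; Nr4a2, Calb2, Penk, Foxp1 and Drd1a were named after their values were seen, to complete small counts, and the listed genes nearest in level to Cux2 and Zfpm2 were also named. Alternatives were pseudocounts of 1, 0.01 and none, median, total and upper-quartile scaling, the highest row per gene, other filters, a fold change above 2 and non-overlapping FPKM bounds. Promoter sequences are RefSeq's (GRCm38.p6). Python 3.11.15, numpy 2.4.6, pandas 2.3.3, scipy 1.17.1 and matplotlib 3.10.9 were used.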

Additional observations from a re-analysis of the deposited data

How the results depend on the processing

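Zfpm2 stayed more than 1.5-fold lower under every pseudocount, scaling and filter tried, between -0.86 and -0.74, and failed only a fold change above 2, which left 0 of the 9 genes lower. The change of the Tbr1 to Fezf2 ratio stayed within its counting interval under the pseudocounts and the highest row per gene. These could hardly move it, since both genes have 1 transcript and were at 54.5 FPKM or more. Of the 63 values for single genes under alternatives, 57 stayed within their 95% interval. Some of these could not move, because the highest row leaves a gene with 1 transcript unchanged. Using the highest row per gene, which lowers only the control library, gave 0.32 for Bcl11a, whose sign thus flipped, and 0.66 for Bcl11b, so that 1 gene was counted as higher, and moved the median of the 9 genes to 0.22. Upper-quartile scaling gave 0.28 for Tbr1, -0.080 for Neurod2 and 0.018 for Neurod6, and median scaling -0.011 for Neurod6, so that the sign of Neurod6 depends on the scaling. Over the other lists, 35 genes past 1.5-fold became 20 when 1 library had to reach 5 FPKM and 21 with a fold change above 2, since both settings are stricter. Zfpm2 had the fewest fragments of the genes with recovered counts, 762 and 565. No paired analysis was possible because each genotype has 1 library.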

Other observations

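Of 7 microglial genes, 4 were past 1.5-fold on Rcor2 depletion, all higher (Tyrobp at 1.09, C1qa at 0.89, Csf1r at 0.67 and C1qc at 0.60, with C1qb at 0.25). The summed level of the 7 genes was 19.2 and 29.3 FPKM. The count was 2 with a pseudocount of 1 and 1 where the 95% FPKM bounds had also not to overlap, and the wider interval of C1qc, from -0.09 to 1.31, includes 0. None of 6 endothelial genes was past 1.5-fold (median 0.17, Cldn5 at 0.04 and Kdr at 0.04), nor were the 4 of 6 erythroid genes that passed the filter (median -0.14, Hba-a1 at -0.19 and Hbb-y at -0.10). All 6 meningeal genes were under 1 FPKM in both libraries. Of 7 choroid plexus genes only Ttr, listed at 0 and at 57.8 FPKM, and Kcne2, with 4 and 57 fragments, passed the filter, both only through the Rcor2cko library.

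The pair of levels most like that of Cux2, the gene with the highest log2 change of the 9, was searched among 134 genes of the lists by the distance of the log2 levels over the 2 libraries. Ppp1r1b was nearest, at a distance of 0.124, followed by Syt1 at 0.167. For Zfpm2, which had the lowest log2 change, Nefm was nearest at 0.246, followed by Neurog1 at 0.526. With 2 libraries this describes levels only.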
